A study of Drosophila melanogaster with 4 samples.

Results

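The replication-dependent histone genes of Drosophila melanogaster lie in 1 tandem array on chromosome arm 2L. Members were all RefSeq Release 6 genes on 2L whose symbol begins with His1:, His2A:, His2B:, His3: or His4:, which gave 111 of the 17684 genes on the X and autosome arms (6 in all). As annotated in Release 6, the members comprised 23 copies each of His1, His2B and His3, 22 copies of His4 and 20 copies of His2A. The number of copies in the genomes of these embryos was not measured. They ran without interruption by other protein-coding genes from 21416953 to 21541681 on 2L (dm6), a span of 124729 bp, and the symbols and positions bore out a single array. Copies of 1 class had nearly the same length: each His1 copy spanned 1023 bp, each His2B copy 595 bp and each His3 copy 529 bp, while His2A copies spanned 476 to 493 bp and His4 copies 412 to 528 bp.

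These genes encode the histones that package newly replicated DNA, and their mRNAs end in a stem-loop rather than a poly(A) tail. His2A and His2B are transcribed away from each other from a shared promoter region, as are His3 and His4, and each repeat also holds the gene of the linker histone, His1. The array nucleates the histone locus body, a nuclear compartment for histone transcription and mRNA processing. CLAMP, a zinc finger protein that binds GA repeats, is known to bind the promoter region between His3 and His4. CLAMP is also known for recruiting the male dosage compensation complex to the X. Maleless (MLE), the protein profiled, is the RNA helicase of that complex, and the histone array is not on the X.

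MLE sites were mapped by CUT&RUN, where a nuclease tethered by an antibody (here rat anti-MLE) cuts the DNA around a chromatin protein and the released fragments are sequenced. Whole male embryos were obtained through meiotic drive stocks, with SD72/CyO and Rsp[s] chromosomes among them. Mothers of the control groups were MTD-GAL4>GFPRNAi and those of the other groups MTD-GAL4>CLAMPRNAi, the latter with the UAS-CLAMPRNAi[val22] construct. MTD-GAL4 drives expression in the female germline, so that the maternal supply of CLAMP was the target. Early embryos (0-2 h old) preceded the maternal to zygotic transition. Late embryos (2-4 h old) are placed before the transition by the sample titles and after it by the series design. The design speaks of 2 replicates per genotype and age, but the data analysed here were 1 list of called peaks for each of the 4 groups. The lists are called early control, early RNAi, late control and late RNAi after the age and the maternal genotype. Groups without replicate lists allow no test, so each difference below compares lists and has no replicate check.

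The lists held 28246 intervals in early control, 22489 in early RNAi, 25026 in late control and 15890 in late RNAi. Read numbers per list are not given in these files, so the depth behind each list is unknown. The score of a peak is the authors' own value. Its percentile is the share of intervals in the same list with that score or a lower one, and it was used to describe peaks within a list. Tied scores all take the highest of their ranks, so percentiles of different lists are not on a common scale. The score scale of late RNAi was the coarsest, with 68.0% of its intervals on its 10 commonest scores. The same share was 44.8% in early control, 36.4% in early RNAi and 25.9% in late control, the finest scale. The alignment named in the peak names has 4 numbers in its name for late control, 2 for either early list and 0 for late RNAi, with no statement of their meaning.

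MLE peaks were called across the histone array in the late control list, and none was called there in the early control list. Inside the cluster lay 0 peaks in early control, 6 in early RNAi, 70 in late control and 10 in late RNAi. In late control this was 56.1 peaks per 100 kb, against 17.4 per 100 kb over the whole of 2L in the same list. The peaks covered 28.1% of the cluster in late control, against 6.04% of 2L. In the RNAi lists the cluster had fewer peaks per 100 kb than the arm, with 4.81 against 15.3 at 0-2 h and 8.02 against 10.7 at 2-4 h. The late control list stood out from the other lists at this locus, although it was not the longest list.

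**Figure D1:**
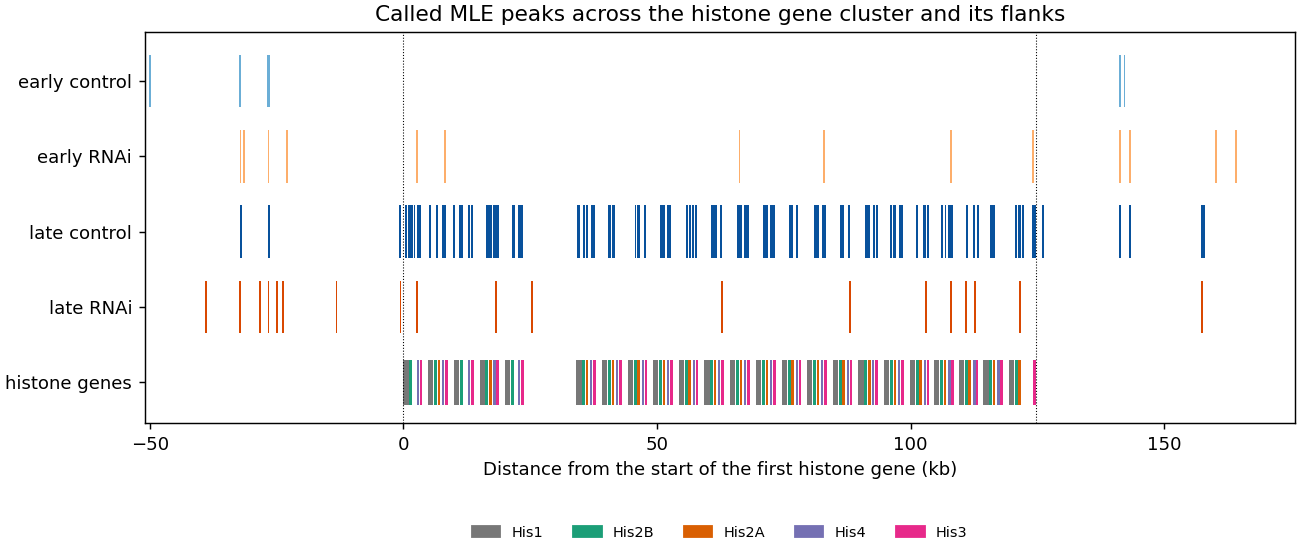
Called MLE peaks (coloured bars, 1 row per list) against distance in kb from the start of the first histone gene, with the 111 histone genes coloured by class in the bottom row and dotted lines at both ends of the cluster. Narrow peaks are drawn slightly wider than they are, so that they can be seen. The 70 peaks of late control lie in every copy of the repeat and cover 28.1% of the cluster, with none in a stretch without histone genes. The row of early control is empty between the dotted lines.

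The cluster was set beside 1068 other windows of its length laid end to end along the 6 arms. In late control each of these windows held fewer peaks than the cluster, with a median of 23 and a highest count of 61. In early control, 1067 of the windows held more peaks than the cluster and 1 window was likewise empty. The difference between late control and early control was 70 peaks in the cluster, while in the other windows it ran from -19 to 12 with a median of -3. In early RNAi, 991 windows held more peaks than the cluster, and in late RNAi this was true of 764. By this count the cluster was the richest window of 1 list and among the poorest of another from embryos of the same maternal genotype.

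The stretch of 2L without a peak in early control was longer than the cluster itself. It ran from 21390641 to 21558107, or 167467 bp, with no longer peak-free stretch on 2L and 2 longer ones on the 6 arms. The median distance between neighbouring peaks in that list was 2583 bp. In late control the longest peak-free stretch that touched the cluster or its 50 kb flanks spanned 29456 bp and lay to the left of the array.

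By gene, 81 of the 111 members shared at least 1 base with a peak in late control, or 73.0% (exact Clopper-Pearson 95% interval 63.7% to 81.0%). The background in that list was 35.7% of all RefSeq genes. Among genes outside the cluster of the same length range, 412 to 1023 bp, it was 15.4%. In early control the count was 0 of 111, against 38.4% of all genes and 17.3% of genes of like length. Early RNAi had 8 of 111 members with a peak, or 7.21% (3.16% to 13.7%), against 31.5% of all genes and 12.7% of those of like length. Late RNAi had 11 of 111, or 9.91% (5.05% to 17.0%), against 25.1% and 8.83%. The share of members was above both backgrounds in late control and below both in early control. In both RNAi lists it was below that of all genes. Beside genes of like length it was lower in early RNAi and slightly higher in late RNAi. These intervals cover counting error only and treat the members as independent, although neighbouring members can share a peak. They do not decide where a share stands against a background. The members are near-identical copies, and how reads that match several copies were placed is not stated, so the position of a peak in 1 copy rather than another is uncertain.

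The histone classes differed in late control. His2B, which encodes a core histone, had a peak at 23 of its 23 copies. His4 and His2A, 2 further core histone genes, had one at 20 of 22 and 17 of 20 copies. His3, the remaining core histone gene, had one at 17 of 23 copies. His1, the linker histone gene, had a peak at 4 of 23 copies, a share of 17.4% that lay near the 15.4% of other genes of like length, although it is the longest of the histone genes. Each core histone class had a higher share than His1 in that list.

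**Figure D2:**
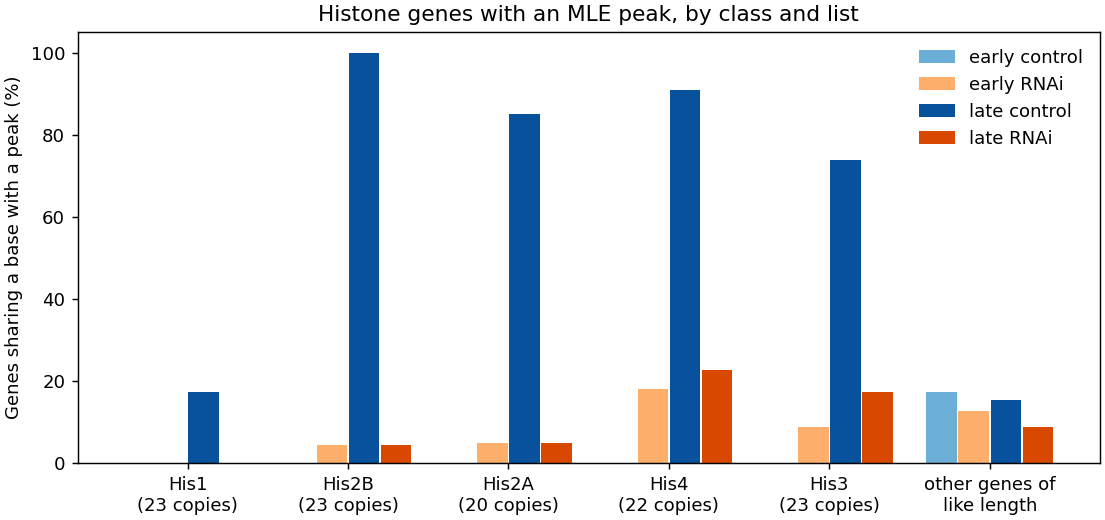
Percentage of the copies of each histone class, and of RefSeq genes of 412 to 1023 bp outside the cluster, that share at least 1 base with a peak, by list. In late control the core histone classes stand between 73.9% and 100% and His1 at 17.4%, while no class has a bar in early control.

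The bases covered by peaks gave the same order of core histones over the linker histone. In late control peaks covered 73.8% of His2A gene bases, 67.5% of His4, 66.6% of His2B and 40.2% of His3, but 5.90% of His1. Of the spacer between His2B and His2A they covered 54.8%, and of that between His4 and His3, 60.4%. Both of these hold a divergent promoter region. Cover was lower in the spacer between His2A and His4, at 12.8%, and in that between His1 and His2B, at 5.81%. In the long spacer between His3 and the next His1 (median 1182 bp) it was 0.576%. Summed over the copies, peak cover lay mainly over the His2B and His2A pair and over the His4 and His3 pair, with His1 and the spacer before it nearly bare. Single copies departed from this, as given below.

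Some single peaks joined the genes of a pair. In late control, 8 peaks touched both a His2B and a His2A gene and 7 touched both a His4 and a His3 gene. In that list 0 peaks touched both His2A and His4, and 0 touched both His3 and His1, but these genes lie further apart. The median spacer was 128 bp and 183 bp within the pairs, 365 bp between His2A and His4, and 1182 bp between His3 and His1. The widest array peak was 1169 bp, so none could join His3 and His1 across a spacer of median length. Of the 70 peaks, 53 touched a single member, 15 touched 2 members and 2 touched none.

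**Figure D3:**
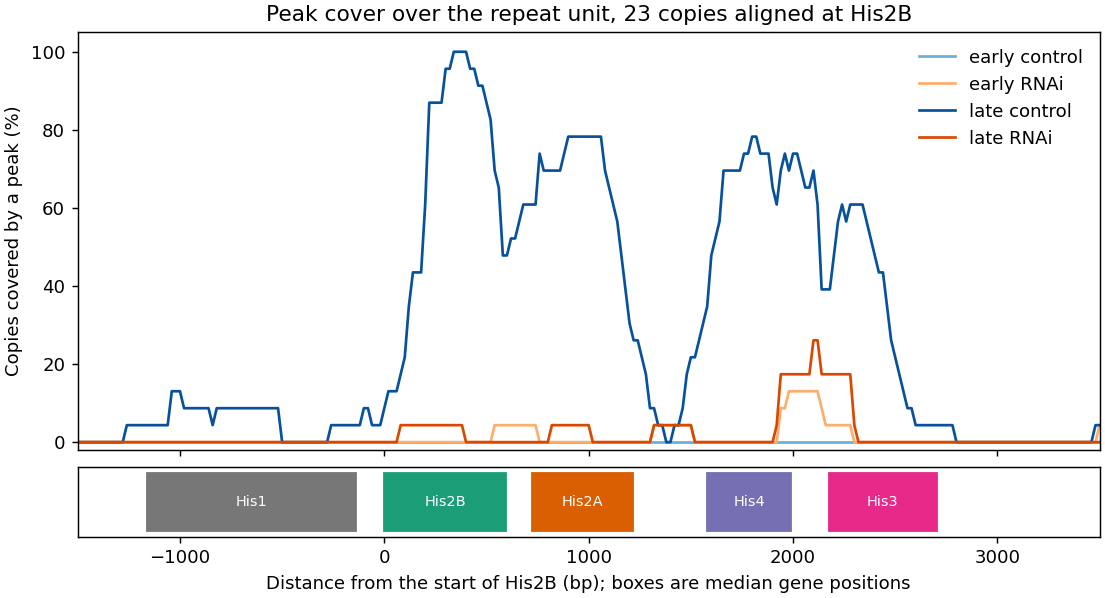
Percentage of the 23 copies of the repeat that are covered by a peak, against distance in bp from the start of His2B, with a line per list and the median gene positions as boxes. The start is the lower coordinate of the gene, taken without strand, and need not be where transcription starts. Late control reaches 100% at 340 bp, inside His2B, and nearly 0% between the gene pairs, whereas the highest value of early RNAi, 3 of 23 copies, is first reached at 1980 bp near the end of His4 and that of late RNAi, 6 of 23, at 2100 bp between His4 and His3.

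Copies of the repeat were counted from the start of a His1 gene to the next, which gave 23 copies with a median length of 5045 bp, of which 19 held a gene of each of the 5 classes. In late control every one of the 23 copies held at least 2 peak midpoints, with a median of 3. Copies 1 and 6 held 5 peaks each and copies 3, 10, 18 and 23 held 4 each. Copies 4, 7, 11, 12, 14, 15 and 22 held 2 each, and the others 3. The share of a copy covered by peaks ran from 9.66% to 46.3% with a median of 28.0%. The lowest value belonged to copy 5, which is 14041 bp long because of a stretch without annotated histone genes after His3:CG33812.

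**Figure D4:**
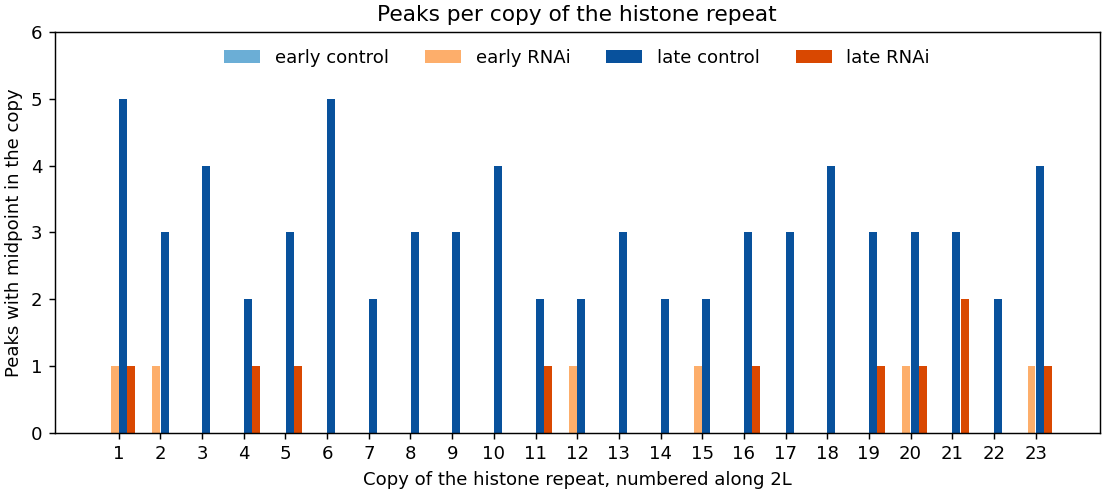
Number of peaks with their midpoint in each of the 23 copies of the histone repeat, numbered by position on 2L, with a bar per list. Late control has 2 to 5 peaks in every copy, early RNAi has 1 peak in each of 6 copies, and late RNAi has 1 or 2 peaks in each of 9 copies.

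Copy 6 showed a separate peak at each class. His1:CG33813 carried a peak of 546 bp at the 47.2 percentile and His2B:CG33902 one of 510 bp at the 49.2 percentile. His2A:CG33814 carried one of 470 bp at the 49.5 percentile, His4:CG33901 one of 400 bp at the 49.6 percentile and His3:CG33815 one of 318 bp at the 37.9 percentile. Copy 12 instead had 2 broad peaks. A peak of 974 bp joined His2B:CG33890 and His2A:CG33832 at the 67.2 percentile, and a peak of 947 bp joined His4:CG33889 and His3:CG33833 at the 74.2 percentile. Both copies thus had a peak at each core histone gene, in 4 intervals in copy 6 and in 2 in copy 12.

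The exceptions within classes were few in late control. The 4 His1 genes with a peak, His1:CG33801, His1:CG31617, His1:CG33804 and His1:CG33813, lay in copies 1, 2, 3 and 6, at the left end of the array. The 3 His2A genes without one were His2A:CG31618, His2A:CG33853 and His2A:CG33859. Copies 7 and 22 lacked a peak at both genes of the His4 and His3 pair, namely His4:CG33899 with His3:CG33818 and His4:CG33869 with His3:CG33863. A further 4 His3 genes, in copies 9, 11, 14 and 16, had none while their His4 partner had one.

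The array peaks ranked close to the median 2L peak in both late lists and ranked below it in early RNAi. In late control their percentiles ran from 3.34 to 75.8 with a median of 47.3, next to a median of 47.2 over all 2L peaks of that list. The strongest, from 21439589 to 21440054 over His4:CG33903 in copy 5, had a score of 187 and the 75.8 percentile. The next lay over His4:CG33889 and His3:CG33833 (score 172) and over His2A:CG33826 (score 162, 73.1 percentile). Over the copies with a peak, the median of the best percentile was 60.9 for His2A, 50.5 for His4, 49.2 for His2B, 45.0 for His3 and 35.3 for His1. The array peaks were wider than usual, with a median of 451.5 bp against 375 bp for the whole list and a widest peak of 1169 bp over His2B:CG33892 and His2A:CG33829.

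**Figure D5:**
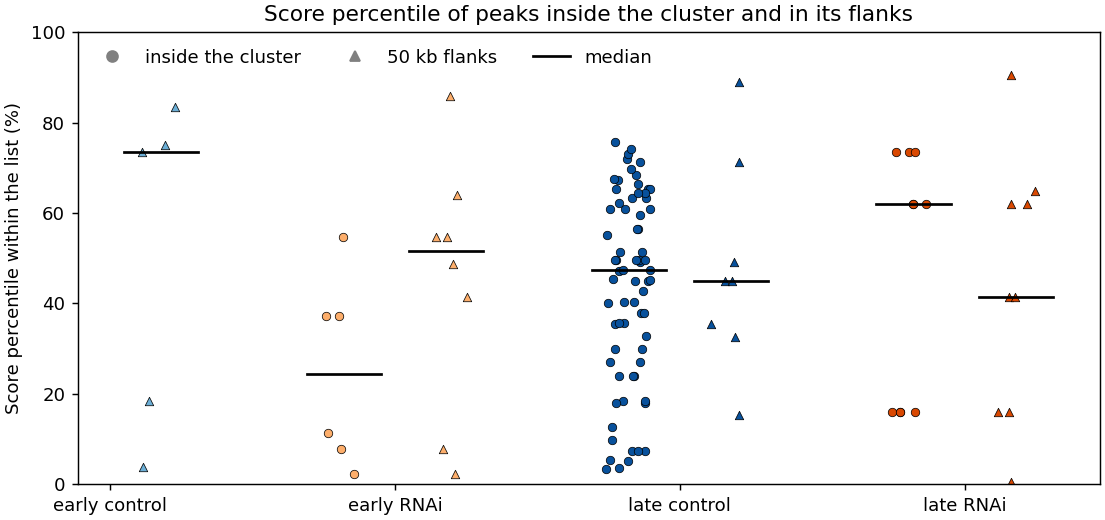
Score percentile within its list of each peak inside the cluster (circles) and in the 50 kb flanks (triangles), with the median as a bar. The highest circle of each list stays at 75.8 (late control), 73.4 (late RNAi) or 54.7 (early RNAi), and the highest triangle of each list lies above 83.

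Early RNAi had 6 peaks in the array, from the 2.2 to the 54.7 percentile, with a median of 24.2 next to 48.6 over all 2L peaks of that list. The strongest lay from 21424982 to 21425310 and touched both His4:CG31611 and His3:CG31613 (score 65, 54.7 percentile). A peak from 21524701 to 21524900 in His4:CG33873 and one from 21540995 to 21541204 at His3:CG33866 each had a score of 44 and the 37.1 percentile. The other 3 were weaker. They lay from 21483029 to 21483253 at His2B:CG33890 and His2A:CG33832 (score 23, 11.4 percentile), from 21419423 to 21419622 at His4:CG33909 (score 20, 7.67 percentile) and from 21499672 to 21499898 at His4:CG33883 (score 15, 2.2 percentile). Of the 6 midpoints, 4 lay within 300 bp of a His3 start. One of these was in copy 23, at a histone pseudogene, where no His4 gene is annotated, and another was inside His4:CG33873.

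Late RNAi had 10 peaks in the array, from the 15.8 to the 73.4 percentile, with a median of 61.9, the same as over all its 2L peaks. Those at the 73.4 percentile (score 41) lay from 21442088 to 21442288 in the stretch without histone genes of copy 5, from 21524692 to 21525069 at His4:CG33873 and His3:CG33857, and from 21529540 to 21529924 at His4:CG33871 and His3:CG33860. At the 61.9 percentile (score 32) were peaks from 21435044 to 21435247 at His4:CG33905, from 21479558 to 21479757 at His3:CG33830 and from 21519857 to 21520057 at His4:CG33875. The remaining 4 had a score of 17 (15.8 percentile). They lay from 21419422 to 21419621 at His4:CG33909, from 21504893 to 21505092 at His3:CG33845, from 21527695 to 21528001 at His2B:CG33872 and from 21538307 to 21538506 at His2A:CG33865. Of the 10 midpoints, 6 lay within 300 bp of a His3 start on either side, next to 4 of 6 in early RNAi and 22 of 70 in late control. His1 had a peak at 0 of 23 copies in both RNAi lists.

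Nearly all of the few array peaks of the RNAi lists shared at least 1 base with a late control peak. Some shared only an edge: the late RNAi peaks at His3:CG33830 and His3:CG33845 lay on genes without a late control peak. Late control peaks covered 28.1% of the cluster against 6.04% of 2L. Whole-list shares found in late control are thus not a matched background. Each of the 6 array peaks of early RNAi shared a base with a late control peak, next to 76.7% of the peaks of that whole list. Of the 10 array peaks of late RNAi, 9 did so, next to 65% of the whole list, and the exception was the peak in the stretch without histone genes. With early control both lists shared 0 array peaks, next to 74.4% and 63.4% of the whole lists. In the other direction, of the 70 array peaks of late control, 6 were found in early RNAi and 9 in late RNAi, or 8.57% and 12.9%, whereas 68.3% and 40.6% of all late control peaks were found there. In early control 0 of the 70 were found, next to 74% of the whole list. Between the RNAi lists, 2 of the 6 array peaks at 0-2 h were found at 2-4 h (42.5% of the whole list) and 2 of the 10 in the other direction (60.5% of the whole list).

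At those 2 places the peaks of both RNAi lists shared bases with each other and with a late control peak, and early control had no peak. At His4:CG33873 in copy 20 the percentile was 37.1 in early RNAi, 64.3 in late control and 73.4 in late RNAi. The median 2L peak of these lists stood at 48.6, 47.2 and 61.9 in that order, so the percentiles do not compare strength between lists. At His4:CG33909 in copy 1 the percentile was 7.67 in early RNAi, 51.4 in late control and 15.8 in late RNAi. There the RNAi peaks ended at 21419622 and 21419621 and met only the left edge of the late control peak. The latter ran from 21419582 to 21420370, so these values may belong to neighbouring peaks rather than to 1 site. The late control peaks were the wider at both places, with 945 bp and 789 bp against 200 to 378 bp in the RNAi lists. Over the whole lists the median width was 375 bp in late control, 366 bp in early RNAi and 245 bp in late RNAi. Peaks of late RNAi were thus narrower throughout that list, not only here.

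The difference of 60 peaks between late RNAi and late control set the list of the coarsest score scale against that of the finest. In the other 1068 windows the late RNAi minus late control difference ran from -29 to 6 with a median of -8, and in the cluster it was -60. Maternal genotype and the properties of these single lists cannot be told apart. The difference between the control lists at 0-2 h and 2-4 h likewise rests on 1 list per age, and the part of depth in it was not tested. The placement of reads that match several near-identical copies bears on whether peaks can be called in the array, and it is not stated for any of these lists. A difference between lists in this step and a difference between embryos cannot be told apart, for 0 against 70 peaks as for 10 against 70.

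The flanks did not share the high count of the array in late control. Within 50 kb to either side lay 5 peaks in early control, 8 in early RNAi, 8 in late control and 9 in late RNAi. Per 100 kb the left and right flanks held 6 and 4 peaks in early control, against 19.7 over 2L. The values were 8 and 8 against 15.3 in early RNAi, and 6 and 10 against 17.4 in late control. In late RNAi they were 16 and 2 against 10.7. Both flanks were thus poorer in peaks than the arm in each list but late RNAi. To the left, nrv3, which encodes a beta subunit of the sodium pump, carried 2 peaks that each list had. One was from 21390085 to 21390640 in early control (score 163, 83.5 percentile) and from 21390154 to 21390535 in early RNAi (score 279, 86.0 percentile). It was from 21390152 to 21390563 in late control (score 536, 89.1 percentile) and from 21390156 to 21390535 in late RNAi (score 39, 64.9 percentile). The other nrv3 peak was the strongest flank peak of late RNAi, from 21384505 to 21384885 (score 102, 90.4 percentile), and ranked at the 18.3, 54.7 and 35.3 percentiles in early control, early RNAi and late control. Sites within 50 kb of the array were called in each list, including early control, which had none inside it. In early control the nearest such sites bounded the peak-free stretch of 167467 bp, which reached beyond the array on both sides.

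To the right, a peak outside any annotated gene lay from 21558108 to 21558488 in early control (score 98, 74.9 percentile) and at the same bases in late control (score 143, 71.2 percentile). Early RNAi had it from 21558117 to 21558484 (score 48, 41.3 percentile), and late RNAi had no peak there. Lamp1, which encodes a lysosomal membrane protein, carried a peak at 21574231 to 21574430 in late control (45.0 percentile) and at 21574229 to 21574524 in late RNAi (15.8 percentile), and none at that place in the 0-2 h lists. Late control had a further Lamp1 peak from 21574716 to 21575110 (score 65, 49.2 percentile). In early RNAi a peak 453 bp from nrv3 had a score of 85 (64.0 percentile), followed by peaks in nrv3 and to the right of the array with a score of 65 each. The gene dtr, at the outer left edge, carried an early control peak (score 92, 73.4 percentile). In late RNAi the flank peaks next in rank lay in nrv3 and CG8665 at the 61.9 percentile.

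Immediately beside the array both late lists had a peak. A peak from 21416008 to 21416380 in late control (score 58, 45.0 percentile) and one from 21416188 to 21416387 in late RNAi (score 24, 41.4 percentile) lay 573 and 566 bp from the first gene, His1:CG33801. The 0-2 h lists had no peak there.

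Histone genes outside the array carried peaks also where the array had none. All 5 replication-independent histone genes, whose products are deposited outside replication or, for BigH1, serve as the embryonic linker histone, had a peak in early control, early RNAi and late control, and 3 of 5 had one in late RNAi. Of all RefSeq genes 38.4%, 31.5%, 35.7% and 25.1% had a peak in early control, early RNAi, late control and late RNAi. His3.3A, a gene of the replacement histone H3.3, ranked highest, with best percentiles of 95.5 in early control, 92.6 in early RNAi, 94.5 in late control and 85.7 in late RNAi. His2Av, the single H2A variant gene, had 79.1, 68.8, 77.2 and 73.4 in the same order. His4r, a histone H4 gene outside the array, had 84.6, 83.2 and 87.7 and no peak in late RNAi. His3.3B, the other H3.3 gene, had 72.0, 59.9 and 59.5 and no peak there either, and BigH1 had 45.4, 37.1, 29.9 and 83.1. These single-copy genes had peaks in the control lists of both ages, unlike the members of the array.

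Of 13 genes of the histone locus body and of histone mRNA processing, 3 had a peak in early control, 2 in early RNAi, 3 in late control and 2 in late RNAi. These counts are too small to set apart from the background of all genes given above. The 13 genes span 71 to 6971 bp, and no background of matching length was computed for them. Those with a peak in each list were Clamp and mute, a gene of the histone locus body. At mute the best percentiles were 85.0, 84.7, 82.2 and 79.1 in early control, early RNAi, late control and late RNAi. At Clamp, the gene targeted by the RNAi, they were 98.5, 96.7, 99.3 and 79.1 in the same order. The gene mxc, which encodes the scaffold of the histone locus body, had peaks in early control alone (35.1 percentile), and Slbp, which encodes the stem-loop binding protein, had 1 of the lowest score in late control (1.52 percentile). Lsm10, Lsm11, FLASH, snRNA:U7, Sym, Cpsf73, Cpsf100, CstF64 and abo had 0 peaks in each list.

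Of the 8 histone pseudogenes at the locus, 0 carried a peak in early control, 1 in early RNAi, 3 in late control and 0 in late RNAi. Of all RefSeq genes 38.4%, 31.5%, 35.7% and 25.1% had one in the same order, and counts among 8 genes are too small to set apart from these shares. The pseudogenes with a peak in late control were His-Psi:CR33802 in copy 1, His-Psi:CR33867 in copy 23 and His-Psi:CR31614 just right of the array. The pseudogenes His-Psi:CR33805 and His-Psi:CR33811, which stand between His2B and His4 in copies 3 and 5, had 0 peaks in each list, although both copies had peaks at their intact core histone genes.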

How the data were processed

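MLE CUT&RUN peak lists of 4 groups, 1 list each, were used as the authors deposited them. The score, the authors' deposited value, is a whole number of at least 13 and is not on a common scale across lists. Per the submitters' processing notes, FastQC, Trim Galore, BWA, Bowtie2, SAMtools, Picard 2.20.2 and MACS2 were used with the build dm6. The calling threshold, any control library, the pooling of replicates and the placement of reads matching several copies are not given in the sources used here.

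Repeated intervals were collapsed to 1 with the highest score, and percentiles were taken over intervals of the 6 arms. Overlap meant at least 1 shared base. Gene positions came from the RefSeq table of Release 6, the same assembly as dm6, without strand or exons. The start of a gene is thus its lower coordinate on the arm. The highest peak end lay at 100.4% of the last gene end on 2L. Overlap, cover and percentile functions were tested on simulated data in Python 3.11.15 with pandas 2.3.3, numpy 2.4.6 and SciPy 1.17.1. The members and lists were chosen with earlier results of these data known. The planned search for GA repeats in promoters was not run, because no sequence was used here. The planned rule named every array peak, but those of late control are given by class and copy, with examples chosen after their values were seen. One listed gene, planned as Symp, was matched through its synonym as Sym. Alternatives were the flank length, a minimum score, overlap rules, no collapse and, added after seeing the data, lists cut to equal length.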

Additional observations from a re-analysis of the deposited data

Results flagged for a closer look

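For 2 results the RNAi minus control difference had opposite signs in early and late embryos. Whether the ages differ was not tested, for want of replicate lists. In peaks inside the cluster it was 6 early (6 against 0) and -60 late (10 against 70). In histone genes with a peak it was 8 early (8 against 0) and -70 late (11 against 81). In the flanks the difference was 3 and 1 peaks, with the same sign at both ages.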

How the results depend on the processing

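No paired analysis was possible because each group had 1 list and the results come from no test. The count of 0 peaks and 0 genes in early control held under each alternative run, and late control kept the most array peaks and genes in each. A minimum score of 50, on a scale that differs between lists, left 44 array peaks in late control, 1 in early RNAi and 0 in late RNAi. It left 2 histone genes with a peak in early RNAi and 0 in late RNAi, and 3, 5, 5 and 1 flank peaks in early control, early RNAi, late control and late RNAi. With lists cut to the 15890 strongest peaks (ties kept), late control had 46 array peaks and 5 flank peaks, early RNAi 3 array peaks and 4 genes, and early control 3 flank peaks. This alternative was chosen after seeing the data. Flanks of 25 kb held 2, 3, 4 and 4 peaks in the order above, and flanks of 100 kb held 13, 22 and 24 in the first 3 lists. Counting a gene only when a peak midpoint lay in it gave 1 gene in early RNAi and 7 in late RNAi, and extending genes by 500 bp gave 18 in the latter. In late control the count of 81 genes became 54 by midpoint and 109 with the extension. It became 57 with the minimum score and 59 with equal lengths. Without collapse, where repeated intervals count more than once, late control had 89 array peaks against 70. The highest array percentile over all lines of a file was 56.0 in early RNAi and 77.2 in late control, and over 2L intervals alone 59.4 in early RNAi, 80.2 in late control and 77.5 in late RNAi. The minimum score and the equal lengths left fewer intervals to count, and the midpoint and extension rules changed what counts as a gene with a peak. The cause of the moves in percentile was not tested. Depth is unknown for each list, which limits every count of missing peaks.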

Other observations

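Another tandem array, that of the 5S rRNA genes on 2R, was looked up after the histone values had been seen. Of its 96 annotated genes, 5 had a peak in early control, 5 in early RNAi, 5 in late control and 0 in late RNAi. Of all genes 38.4%, 31.5%, 35.7% and 25.1% had one in the same order, but the 5S rRNA genes are at most 135 bp long and no background of that length was computed. The neighbours 5SrRNA:CR33445 and 5SrRNA:CR33444 share 1 peak, at the 97.2 percentile in early control, 94.5 in early RNAi and 95.4 in late control.

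Inside the His2A genes the annotation places 20 short non-coding RNA genes, sncRNA:430a to sncRNA:430t. Of these 17 had a peak in late control, 1 in late RNAi and 0 in each of the 0-2 h lists. They lie within His2A and are covered by the same peaks, so they carry no separate measurement.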
